A study of Homo sapiens with 20 samples.

Results

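Chemokines are small secreted proteins that draw leukocytes along a gradient and also act on epithelial cells that carry their receptors. In the epidermis they are made by keratinocytes after injury, when interleukin-1, TNF and related cytokines act through NF-kB and AP-1 on their promoters, and their short-lived mRNAs are destroyed through AU-rich elements. The genes are given by role.

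The 9 chemokine genes were chosen by name out of 57500 genes listed in every library. The rule used no measured value, but earlier results of these data were known when it was made. They are CXCL1, CXCL2, CXCL3 and CXCL8, which attract neutrophils through the receptor CXCR2, CXCL14, a chemokine of resting epithelium, CXCL16 and CX3CL1, which are made as transmembrane proteins and shed, and the CC chemokines CCL2, which attracts monocytes, and CCL20, which attracts CCR6-positive cells such as Langerhans cell precursors and Th17 cells. Of the 9, 6 passed edgeR's filter on low counts over all 20 libraries, as did 28.8% of all genes listed. CXCL14, CX3CL1 and CCL2 were too weak to compare.

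RNA was sequenced from 20 cultures of NTERT cells, a human keratinocyte line immortalised with hTERT, in 4 groups of 5 replicates. WT cells, which carry a control guide RNA, and GCN2KO cells, an early-passage pool edited with CRISPR/Cas9 in the gene of the eIF2α kinase GCN2, were each left unwounded or collected 6 h after high-density wounding (HDW), in which pipet tips are drawn through a confluent sheet in 2 perpendicular directions. Per the study's methods all 4 groups were differentiated for 36 h in 2% FBS and 2 mM calcium beforehand, whereas the labels name a low-calcium growth medium. The edited cells are a pool and not a clone, and the guide, aimed at exon 2 or exon 12, and the number of pools behind the sequenced cultures are not given in the sources used here. Differences between the genotypes compare these edited cells with the WT cells, and the replicates are cultures whose spread may be technical. In bulk RNA, fewer cells making a transcript and less transcript per cell cannot be told apart.

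The libraries held 14083504 to 34611570 counts. All 10 keratinocyte markers were detected, with a summed normalized read count of 521650.0 to 669063 in every library. PTPRC, which marks all leukocytes, had at most 2 counts in any library, and the Langerhans cell markers CD207 and CD1A were at 0 in all 20. EIF2AK4, the gene of GCN2, had 4152 to 4555 normalized read counts in WT unwounded, 3980.2 to 4303 in WT HDW, 806 to 962 in GCN2KO unwounded and 809.8 to 951 in GCN2KO HDW cells, a log2 ratio of group means of -2.28 (± 0.065 SE, edgeR FDR = 4.29e-13) in unwounded cells and -2.27 (± 0.052 SE, edgeR FDR = 3.26e-12) after HDW. SE is the standard error and FDR the p-value adjusted over all genes tested. GCN2KO unwounded replicate 1 and GCN2KO HDW replicate 5 lay apart from the other GCN2KO libraries on the first principal component. They were at 37.5 and 36.1 against 50.6 to 56.7, and values without both are given where those values bear on a member. Among the WT HDW libraries, replicate 2 was at -37.0 on this component, against -49.6 to -43.0 in the others. It was left out only in the fits that leave out each library in turn.

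CXCL1, CXCL2, CXCL3 and CXCL8 lie together on chromosome 4 of GRCh38. In GENCODE, CXCL8 spans 73740519 to 73743716 and CXCL1 73869393 to 73871308 on the plus strand, while CXCL3 spans 74036589 to 74038807 and CXCL2 74097040 to 74099196 on the minus strand. CXCL16 lies on chromosome 17, 4733533 to 4739928, minus strand, and CCL20 on chromosome 2, 227805739 to 227817564, plus strand. CXCL14 is on chromosome 5, 135570679 to 135579279, minus strand, CX3CL1 on chromosome 16, 57372477 to 57385044, and CCL2 on chromosome 17, 34255274 to 34257208, both plus strand. All 9 are protein-coding. CXCL1, CXCL2 and CXCL3 are close copies of one another, so reads could in principle be shared, but of all 150-base windows of their transcripts only 29 of 1479 in CXCL2 and 29 of 2513 in CXCL3 also occurred in another of the 9 genes, and 0 of 1213 in CXCL1. CXCL16 shares 6.16% of its exonic bases with ZMYND15 and MED11 on the other strand, and strand use in the counting is not stated in the sources used here.

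The sequences just before the start sites show how alike these promoters are. RefSeq promoters on GRCh38.p14 were found for 6 of the 9 genes, and the 150 bases before the RefSeq start site are printed 5′ to 3′ on the gene's strand for the 5 of them that were expressed. Capitals mark matches to the NF-kB consensus or, in CXCL8, the NF-kB-like bases GGAATTTCC and the AP-1 motif TGANTCA. The region is chr4:73869243-73869392 (plus strand) for CXCL1, chr4:74099196-74099345 (minus) for CXCL2, chr4:74038690-74038839 (minus) for CXCL3, chr4:73740419-73740568 (plus) for CXCL8 and chr2:227813692-227813841 (plus) for CCL20.
CXCL1: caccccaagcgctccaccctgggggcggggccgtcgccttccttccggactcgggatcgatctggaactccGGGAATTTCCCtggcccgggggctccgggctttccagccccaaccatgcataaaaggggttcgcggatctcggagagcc
CXCL2: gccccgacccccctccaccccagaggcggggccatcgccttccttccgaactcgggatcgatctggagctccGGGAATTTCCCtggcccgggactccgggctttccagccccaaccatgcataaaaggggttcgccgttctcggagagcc
CXCL3: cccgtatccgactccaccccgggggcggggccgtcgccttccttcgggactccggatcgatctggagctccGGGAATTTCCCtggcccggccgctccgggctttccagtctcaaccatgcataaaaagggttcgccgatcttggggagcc
CXCL8: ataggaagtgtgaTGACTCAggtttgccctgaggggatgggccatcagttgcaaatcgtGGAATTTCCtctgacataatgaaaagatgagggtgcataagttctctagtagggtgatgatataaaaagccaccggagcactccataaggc
CCL20: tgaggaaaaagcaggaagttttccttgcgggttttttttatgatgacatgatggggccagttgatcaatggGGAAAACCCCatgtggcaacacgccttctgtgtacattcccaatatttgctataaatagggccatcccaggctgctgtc

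The CXCL1 promoter was 88.7% identical to that of CXCL2 and 88.1% to that of CXCL3 over these bases, and CXCL2 and CXCL3 were 86.1% identical. CXCL8 was 43.6% to 45.1% identical to the same 3. The bases GGAATTTCC, searched on both strands, stood 78 to 70 bases before the start of CXCL1 and CXCL3, 77 to 69 before CXCL2 and 91 to 83 before CXCL8. Of 35116 RefSeq promoters, 0.413% held these bases within 250 bases upstream. CCL20 had a match to the general NF-kB consensus 79 to 70 bases before its start, on the minus strand, as did 9.96% of all promoters in that window. That consensus also matched in CXCL1, CXCL2 and CXCL3, where it overlaps GGAATTTCC, and not in CXCL8. The AP-1 motif was found 137 to 131 bases before the start of CXCL8 and, among the 6 promoters, also in CXCL14, against 6.57% of all promoters. A match to the motif of C/EBP factors was found, among the 6 promoters, only in CXCL2. It stood 188 to 181 bases before the start, on the minus strand, and so outside the printed bases. Of all promoters, 9.05% had such a match within 250 bases upstream. These matches are letters in a window, and no binding was measured. CXCL1 and CXCL2 share most of the printed letters, NF-kB match included. In unwounded cells their mRNAs differed between the genotypes in opposite directions, as the following values show. Any part of the promoters in this was not tested.

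Levels are given first per length, as reads per kilobase of exon, scaled to a common depth (RPKM), so that genes can be compared. In WT unwounded cells CXCL1 was at 29.4 ± 3.19 (SD, n = 5), CXCL16 at 22.4 ± 2.001 (SD, n = 5), CCL20 at 4.47 ± 0.496 (SD, n = 5) and CXCL8 at 3.22 ± 0.409 (SD, n = 5). CXCL2 was at 1.37 ± 0.198 (SD, n = 5) and CXCL3 at 0.570 ± 0.0936 (SD, n = 5). CXCL16 was first and CXCL1 second in the other 3 groups. CCL20 ranked next in WT unwounded cells but below CXCL8 and CXCL2 in both GCN2KO groups, at 0.852 ± 0.192 (SD, n = 5) unwounded and 0.926 ± 0.175 (SD, n = 5) after HDW, against CXCL2 at 2.34 ± 0.348 (SD, n = 5) and 2.47 ± 0.561 (SD, n = 5). All other values below are normalized read counts, which are counts scaled for library size and not for gene length.

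**Figure D1:**
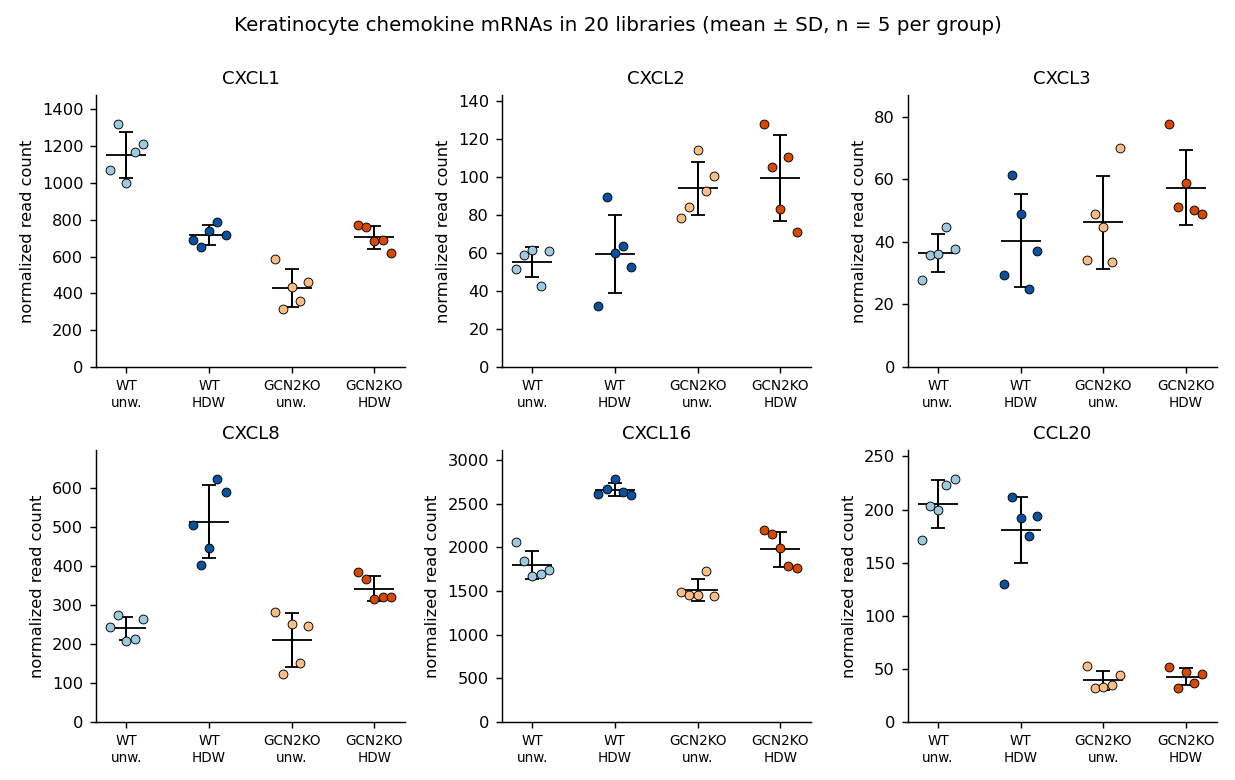
Normalized read counts (y axis, from 0) of the 6 chemokine genes above the filter in each of the 20 libraries, by group (x axis). Points are replicates 1 to 5 from left to right within a group, and bars are the mean ± SD. CXCL1 is highest in WT unwounded cells (997 to 1319) and lowest in GCN2KO unwounded cells (317 to 584), CXCL8 is highest in WT HDW cells (402 to 623), and CCL20 is low in all 10 GCN2KO libraries (31.8 to 52.3).

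CXCL1 moved in opposite directions after HDW in the 2 genotypes. Its WT unwounded values in replicates 1 to 5 were 1069, 1319, 997, 1167 and 1212 normalized read counts. After HDW, WT cells had 691, 651, 738, 789.7 and 715. GCN2KO unwounded cells had 584, 317, 433, 356 and 461, and GCN2KO HDW cells 771, 761, 687, 690.5 and 619. Every WT unwounded library lay above every other library, every GCN2KO unwounded library lay below every other, and both HDW groups overlapped in between.

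In unwounded cells CXCL1 was 2.66-fold lower in GCN2KO than in WT cells (log2 ratio of -1.41 ± 0.13 SE, edgeR FDR = 8.97e-08). HDW lowered it in WT cells by a log2 ratio of -0.69 (± 0.068 SE, edgeR FDR = 7.50e-07) and raised it in GCN2KO cells by 0.72 (± 0.13 SE, edgeR FDR = 0.00275). The difference between these HDW responses, tested as the interaction of genotype and HDW, was 1.40 (± 0.16 SE, edgeR FDR = 6.81e-07). After HDW the difference between the genotypes was -0.02 (± 0.068 SE, edgeR FDR = 0.801), a value whose sign changed with the scaling. Without the 2 GCN2KO libraries that lay apart, the unwounded difference was -1.55 and the interaction 1.57.

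CXCL2 was higher in GCN2KO cells and did not pass the test for HDW. WT unwounded cells had 51.7, 58.9, 61.6, 42.7 and 60.7 normalized read counts, and GCN2KO unwounded cells 78.4, 84.3, 114, 92.5 and 100.5. The 5 GCN2KO unwounded libraries all lay above the 5 WT unwounded ones (log2 ratio of 0.79 ± 0.15 SE, edgeR FDR = 1.76e-04). After HDW, WT cells had 32.0 to 89.2 and GCN2KO cells 70.9 to 128, which overlapped (log2 ratio of 0.74 ± 0.22 SE, edgeR FDR = 0.00878). The HDW difference was 0.11 (± 0.22 SE, edgeR FDR = 0.694) in WT and 0.08 (± 0.16 SE, edgeR FDR = 0.756) in GCN2KO cells. Its interaction was -0.05 (± 0.28 SE, edgeR FDR = 0.921).

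CXCL3 had the lowest mean RPKM of the 6 genes in all 4 groups. It was at 27.8 to 44.6 normalized read counts in WT unwounded, 24.9 to 61.4 in WT HDW, 33.6 to 70.1 in GCN2KO unwounded and 48.8 to 77.6 in GCN2KO HDW cells. All 4 groups overlapped with the next in order of their means. No comparison passed the test, the closest being GCN2KO against WT after HDW with a log2 ratio of 0.51 (± 0.22 SE, edgeR FDR = 0.0552). Of 10 fits of that comparison with 1 library left out, 3 passed. It passed at 0.0404 without GCN2KO HDW replicate 5, at 0.00760 without WT HDW replicate 2 and at 0.0493 without WT HDW replicate 3. Over the 10 fits the log2 ratio was 0.36 to 0.71, and the highest edgeR FDR was 0.163.

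CXCL8, the gene of interleukin-8, rose after HDW in both genotypes. Its values were 242, 275, 207, 212 and 264 normalized read counts in WT unwounded cells and 505, 402, 446, 623 and 592 in WT HDW cells. Unwounded GCN2KO cultures had 282, 123, 251, 150.5 and 247, and GCN2KO HDW cells 386, 366, 315, 321 and 322. GCN2KO unwounded replicates 2 and 4 were lower than the other 3 of that group, and those same 2 libraries also lay apart from replicates 1, 3 and 5 on the third principal component, at 2.31 and -2.75 against -28.4 to -17.6.

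The HDW response of CXCL8 was a log2 ratio of 1.10 (± 0.12 SE, edgeR FDR = 2.24e-06) in WT cells and 0.70 (± 0.18 SE, edgeR FDR = 0.0137) in GCN2KO cells. In both genotypes all 5 HDW libraries lay above all 5 unwounded ones. After HDW it was lower in GCN2KO than in WT cells by a log2 ratio of -0.58 (± 0.11 SE, edgeR FDR = 3.70e-04), with no overlap. In unwounded cells the difference was -0.16 (± 0.18 SE, edgeR FDR = 0.442). A difference between the 2 HDW responses was not shown (interaction -0.42 ± 0.23 SE, edgeR FDR = 0.195). Of 20 fits with 1 library left out, 1 passed, that without GCN2KO unwounded replicate 2 (-0.54, edgeR FDR = 0.0488). The highest edgeR FDR of the 20 was 0.345. Without the 2 GCN2KO libraries that lay apart, the interaction was -0.28 (edgeR FDR = 0.405). The HDW response in GCN2KO cells was then 0.84 (edgeR FDR = 0.0121).

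**Figure D2:**
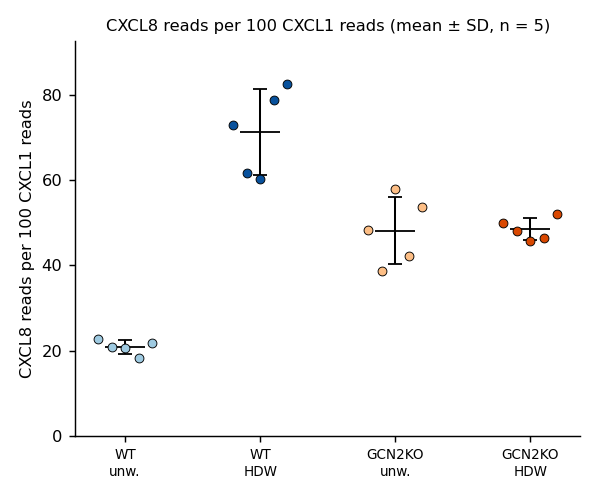
CXCL8 reads per 100 CXCL1 reads in each library (y axis, from 0), by group (x axis), with points for replicates 1 to 5 from left to right and bars for the mean ± SD. WT cells go from 18.2 to 22.7 unwounded to 60.3 to 82.7 after HDW, while the GCN2KO groups, at 38.6 to 57.9 and 45.8 to 52.0, overlap.

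Since CXCL1 and CXCL8 act on the same receptor, their reads were also set against each other within each library, a ratio that needs no scaling between libraries and was chosen after the values were seen. There were 18.2 to 22.7 CXCL8 reads per 100 CXCL1 reads in WT unwounded and 60.3 to 82.7 in WT HDW cells. GCN2KO cells had 38.6 to 57.9 unwounded and 45.8 to 52.0 after HDW. The WT groups did not overlap with each other or with either GCN2KO group, and the GCN2KO groups overlapped. This ratio is a description and was not tested.

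CXCL16, the transmembrane chemokine bound by CXCR6, was the most strongly expressed of the 9 genes after HDW. WT unwounded cells had 2063, 1849, 1671, 1693 and 1738 normalized read counts and WT HDW cells 2607, 2673, 2779.8, 2635 and 2595. Unwounded GCN2KO cultures had 1489, 1452, 1449.8, 1725 and 1439.5 and GCN2KO HDW cells 2200.2, 2149, 1989, 1782 and 1760.2. The WT HDW libraries lay above all others, and 4 of the 5 GCN2KO unwounded libraries lay below all others.

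HDW raised CXCL16 by a log2 ratio of 0.56 (± 0.051 SE, edgeR FDR = 2.99e-07) in WT and 0.40 (± 0.080 SE, edgeR FDR = 0.00470) in GCN2KO cells. The interaction was -0.18 (± 0.098 SE, edgeR FDR = 0.205). GCN2KO cells had less of it than WT cells both unwounded, with overlapping groups (log2 ratio of -0.25 ± 0.076 SE, edgeR FDR = 0.00884), and after HDW, without overlap (log2 ratio of -0.42 ± 0.060 SE, edgeR FDR = 2.03e-05). The steps were smaller than the fold change threshold of 1 on the log2 scale in all 4 comparisons.

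CCL20 showed the largest difference between the genotypes among the 6 genes tested. It had 171, 203, 199, 223 and 228 normalized read counts in WT unwounded cells and 52.3, 32.2, 32.5, 34.5 and 43.9 in GCN2KO unwounded cells. After HDW the values were 129.8, 212, 192, 175 and 194 in WT cells and 51.7, 31.8, 47.0, 36.8 and 45.0 in GCN2KO cells. All 10 WT libraries lay above all 10 GCN2KO libraries, and within each genotype the HDW and unwounded libraries overlapped.

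GCN2KO cells had 5.26-fold less CCL20 than WT cells when unwounded (log2 ratio of -2.39 ± 0.14 SE, edgeR FDR = 6.12e-10) and 4.20-fold less after HDW (log2 ratio of -2.07 ± 0.16 SE, edgeR FDR = 4.72e-08). The HDW difference was -0.20 (± 0.12 SE, edgeR FDR = 0.164) in WT and 0.14 (± 0.18 SE, edgeR FDR = 0.601) in GCN2KO cells, and the interaction was 0.33 (± 0.22 SE, edgeR FDR = 0.301). Without the 2 libraries that lay apart, the unwounded difference between the genotypes was -2.51.

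CXCL14, CX3CL1 and CCL2 were near or at the floor. CXCL14 had 2, 2, 4, 6 and 4 counts in the WT unwounded libraries, 1, 0, 3, 2 and 2 in WT HDW, 0, 1, 1, 0 and 1 in GCN2KO unwounded and 0, 1, 1, 1 and 1 in GCN2KO HDW cells. That is 18 counts in WT unwounded against 3 in GCN2KO unwounded cells, a ratio per total counts of 0.129 (exact 95% interval 0.0244 to 0.443, counting error only). The ratio was 0.303 (0.114 to 0.732) for HDW against unwounded in WT cells. It was 0.559 (0.123 to 2.09) for GCN2KO against WT after HDW and 1.31 (0.221 to 8.93) for HDW in GCN2KO cells, both with intervals that include equal levels. CX3CL1 had 0 counts in all 20 libraries. In a single library a count of 0 allows up to 3 counts, which is 0.0867 to 0.213 CPM depending on the library. This is an upper bound for 1 library and not a limit of detection. Together the 20 libraries held 576303864 counts. CCL2 had 2 counts in all, 1 each in WT HDW replicates 3 and 5.

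**Figure D3:**
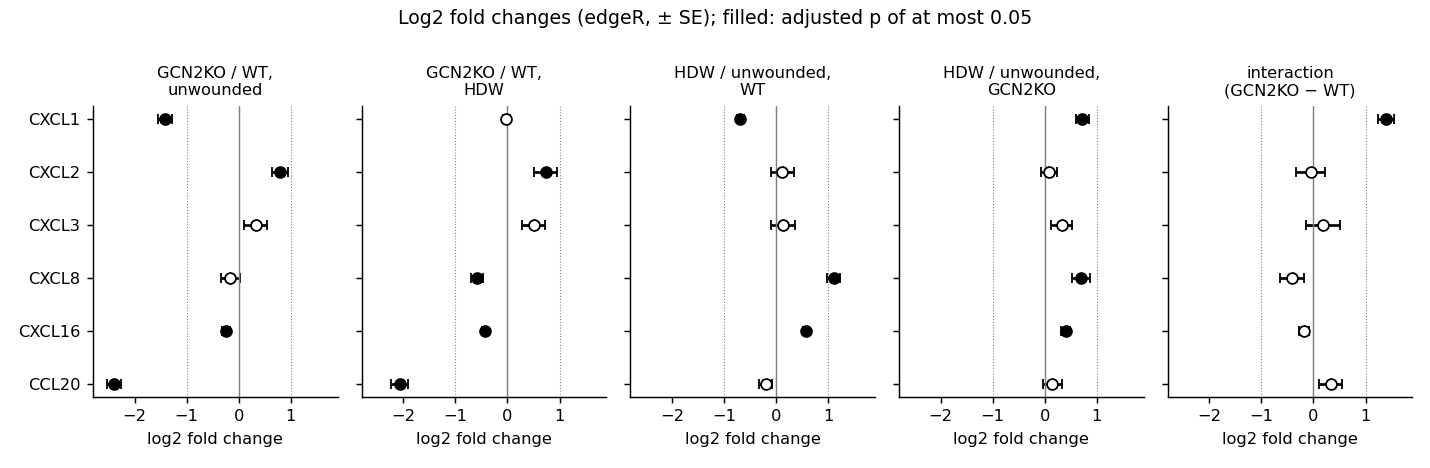
Log2 fold changes (x axis) with their SE for the 6 chemokine genes above the filter (y axis) in the 4 pairwise comparisons and the interaction, from edgeR. Filled points passed an adjusted p of 0.05, and dotted lines mark the fold change threshold. CXCL1 (1.40) is the only filled point in the interaction panel, and CCL20 has the largest values in both genotype panels (-2.39 and -2.07).

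To set these genes beside all others, DE genes were those past both thresholds, a log2 value of 1 in either direction and an adjusted p of 0.05. In unwounded cells 2 of the 6 members tested, CXCL1 and CCL20, were DE genes between the genotypes, where 16.4% of 15348 genes were. By adjusted p alone it was 4 of 6 beside 66.5% of all genes, and 3 members had groups without overlap beside 53.3%. After HDW CCL20 was the 1 DE gene of the 6, where 14.9% of 15855 genes were. By adjusted p alone 4 differed beside 71.7%, and 3 had no overlap beside 57.2%. By adjusted p alone the members' share was thus near that of all genes in both genotype comparisons, and the values stand for single genes only.

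For HDW in WT cells CXCL8 was the 1 DE gene of the 6, where 4.17% of all genes were. CXCL1, CXCL8 and CXCL16 passed by adjusted p alone beside 51.3%, and the same 3 had no overlap beside 36.9%. In GCN2KO cells edgeR and DESeq2 called 0 members DE genes, where 0.671% of all genes were by edgeR, although CXCL1, CXCL8 and CXCL16 passed an adjusted p alone beside 22.7% and had no overlap beside 15.2%. The same 3 had an unadjusted p under 0.05. For the interaction CXCL1 was the 1 DE gene of the 6 and also the 1 past the adjusted p alone, beside 3.31% and 23.7% of 16536 genes.

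The pairwise likeness of the members over the 20 libraries is a description, since the libraries share groups. CXCL8 and CXCL16 had the highest Pearson's r among the 6 genes, 0.810, followed by CXCL1 and CCL20 at 0.736 and CXCL2 and CXCL3 at 0.638. CXCL1 and CXCL2 had an r of -0.501, and CXCL2 and CCL20 of -0.727. Among all genes above the filter, the interferon-induced GTPase gene GBP1 was most like CXCL1 with an r of 0.970, followed by the heparan sulfate sulfotransferase gene HS3ST3B1 at 0.931 and the unnamed gene ENSG00000269693 at 0.910. CCL20 was most like HEXA, a subunit of lysosomal hexosaminidase, at 0.981, RNF130 and C1R, a complement protease, both at 0.979. CXCL8 was most like the calpain gene CAPN14 (0.916), NETO1 (0.886) and HDAC9, a histone deacetylase (0.882), and CXCL16 like CARD10, a scaffold of NF-kB signaling (0.964), THOP1 (0.963) and the folate carrier gene SLC19A1 (0.960). CXCL2 came nearest to ENSG00000226535 (0.890), PLPBP (0.885) and THUMPD1 (0.882), and CXCL3 to EID2B (0.790), FUCA2 (0.779) and L3HYPDH (0.745).

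The other chemokine genes put these values in context. Of 37 further chemokine genes, 6 passed the filter, and 15 had 0 counts in all 20 libraries. In unwounded cells 1 of the 6 was higher and 4 were lower in GCN2KO cells, with a median log2 ratio at -0.94 against 0.00424 for all genes tested, of which 66.5% passed in either direction. After HDW 2 were higher and 3 lower, with a median of -0.89 against 0.00197 for all genes, of which 71.7% passed.

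CXCL6, which like CXCL1 acts on CXCR2, had 26.6 to 36.2 normalized read counts in WT unwounded, 11.8 to 19.9 in WT HDW, 35.1 to 43.2 in GCN2KO unwounded and 41.8 to 61.3 in GCN2KO HDW cells. As with CXCL1, its HDW response differed between the genotypes (interaction 1.38 ± 0.22 SE, edgeR FDR = 7.65e-05), falling in WT (-0.94 ± 0.18 SE, edgeR FDR = 4.66e-04) and rising in GCN2KO cells (0.45 ± 0.14 SE, edgeR FDR = 0.0374). It exceeded its WT level in GCN2KO cells after HDW (log2 ratio of 1.65 ± 0.17 SE, edgeR FDR = 7.40e-07). PPBP, another CXCR2 ligand gene, did not pass the filter and was singled out after its values were seen: it had 3 to 23 counts in each GCN2KO library and 0 to 2 in each WT library.

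CXCL10 and CXCL11, interferon-induced ligands of CXCR3, were lower in GCN2KO cells. CXCL10 had 58.0 to 103 normalized read counts in WT unwounded and 1.53 to 14.9 in GCN2KO unwounded cells (log2 ratio of -2.995 ± 0.31 SE, edgeR FDR = 3.58e-07), and after HDW 34.6 to 47.3 against 2.502 to 13.4 (-2.51 ± 0.27 SE, edgeR FDR = 1.25e-06). CXCL11 differed by -2.53 (± 0.23 SE, edgeR FDR = 6.26e-08) in unwounded cells and -1.85 (± 0.15 SE, edgeR FDR = 8.56e-08) after HDW. CXCL17, a mucosal chemokine, was lower by -1.37 (± 0.19 SE, edgeR FDR = 9.27e-06) and -1.71 (± 0.22 SE, edgeR FDR = 9.76e-06). In all 3 genes the 5 GCN2KO libraries lay below the 5 WT libraries in both states. Of all genes, 53.3% had no overlap in either direction in unwounded cells and 57.2% after HDW.

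CCL5, which attracts T cells and monocytes, went the other way, with 31.8 to 55.3 normalized read counts in WT unwounded and 75.1 to 120 in GCN2KO unwounded cells (log2 ratio of 1.11 ± 0.15 SE, edgeR FDR = 9.71e-06). CCL28, an epithelial chemokine, fell with HDW in WT cells (-0.42 ± 0.09 SE, edgeR FDR = 0.00106) and had a difference of 0.02 (± 0.11 SE, edgeR FDR = 0.917) in GCN2KO cells.

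**Figure D4:**
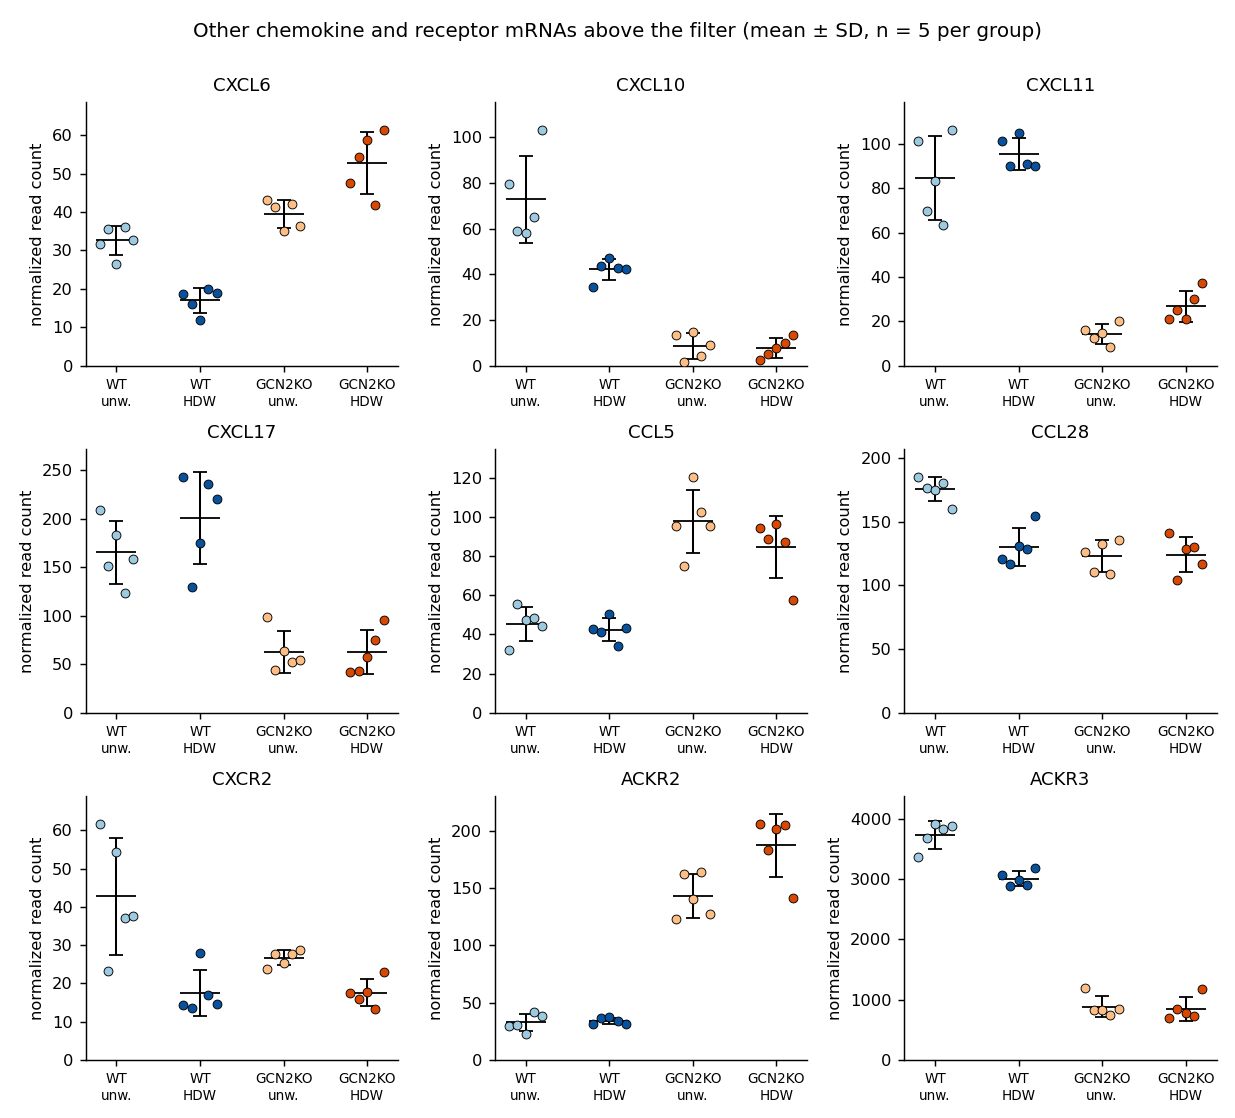
Normalized read counts (y axis, from 0) of the 6 other chemokine genes and 3 receptor genes above the filter in each of the 20 libraries, by group (x axis), with points for replicates 1 to 5 from left to right and bars for the mean ± SD. CXCL10, CXCL11, CXCL17 and ACKR3 are lower in all 10 GCN2KO libraries, ACKR2 and CCL5 are higher, and the CXCL6 mean goes from 32.6 to 17.1 with HDW in WT cells and from 39.6 to 52.7 in GCN2KO cells.

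Of 23 chemokine receptor genes, 3 passed the filter. ACKR3, a scavenging receptor of CXCL11 and CXCL12, had 3360.5 to 3908 normalized read counts in WT unwounded and 735 to 1195 in GCN2KO unwounded cells (log2 ratio of -2.08 ± 0.11 SE, edgeR FDR = 1.54e-10), and -1.83 (± 0.11 SE, edgeR FDR = 6.98e-09) after HDW. ACKR2, the decoy receptor that degrades inflammatory CC chemokines, was higher in GCN2KO cells by 2.09 (± 0.16 SE, edgeR FDR = 1.18e-08) unwounded and 2.46 (± 0.13 SE, edgeR FDR = 1.54e-09) after HDW.

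CXCR2, the receptor of the 4 CXCR2 ligands among the members, was weak. It had 23.2 to 61.6 normalized read counts in WT unwounded and 13.5 to 27.8 in WT HDW cells, which overlapped (log2 ratio of -1.27 ± 0.26 SE, edgeR FDR = 7.88e-04). In GCN2KO cells it went from 23.9 to 28.7 unwounded to 13.4 to 23.0 after HDW (-0.58 ± 0.18 SE, edgeR FDR = 0.0304). The receptor gene of CCL20, CCR6, had 0 counts in all 20 libraries, and CXCR6, that of CXCL16, at most 5 in any library. CCRL2 and CCR2 did not pass the filter and were singled out after their values were seen. CCRL2 had 3 to 13 counts in each GCN2KO library and 0 to 2 in each WT library, and CCR2 had 1 to 5 and 0.

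Genes that act upstream of chemokines were taken from lists of inducing cytokines with their receptors and adaptors (30 genes) and NF-kB components (16). Further lists held AP-1, C/EBP and ATF factors (14), regulators of mRNA decay (8) and sheddases with their regulators (5). Of the inducing cytokine list, 23 genes were tested in unwounded cells, where 7 were higher and 11 lower in GCN2KO cells with a median log2 ratio at -0.15, beside 66.5% of all genes that passed in either direction. After HDW 8 of 24 were higher and 12 lower, with a median of -0.18, beside 71.7%.

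IL1A, an alarmin released by damaged keratinocytes, had 1558 to 1891 normalized read counts in WT unwounded and 3319 to 4203 in WT HDW cells (log2 ratio of 1.15 ± 0.063 SE, edgeR FDR = 1.60e-09). GCN2KO cells already had 2595 to 3486 unwounded, and 3323 to 4236 after HDW. IL1B, another interleukin-1 gene, had 3137 to 3960 in WT HDW and 1462 to 1690 in GCN2KO HDW cells (-1.19 ± 0.060 SE, edgeR FDR = 1.28e-09). IL36G, a keratinocyte cytokine that induces chemokines, rose with HDW in WT cells (1.09 ± 0.095 SE, edgeR FDR = 1.91e-07) and was lower in GCN2KO than in WT cells both unwounded (-1.32 ± 0.15 SE, edgeR FDR = 7.43e-07) and after HDW (-1.71 ± 0.11 SE, edgeR FDR = 7.43e-09). IL36RN, the gene of its receptor antagonist, was higher in GCN2KO cells (2.02 ± 0.13 SE, edgeR FDR = 1.30e-09 unwounded and 2.26 ± 0.15 SE, edgeR FDR = 1.72e-08 after HDW).

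IL33, a nuclear alarmin, rose with HDW in WT cells from 9.29 to 37.4 to 55.5 to 84.8 normalized read counts (log2 ratio of 1.65 ± 0.27 SE, edgeR FDR = 9.72e-05) and was lower in GCN2KO HDW cells at 4.79 to 10.1 (-3.17 ± 0.22 SE, edgeR FDR = 2.36e-08). IRAK3, an inhibitor of Toll-like and interleukin-1 receptor signaling, was lower in GCN2KO cells by -3.35 (± 0.32 SE, edgeR FDR = 1.55e-07) unwounded and -3.22 (± 0.42 SE, edgeR FDR = 8.84e-06) after HDW. IL1RN, the interleukin-1 receptor antagonist gene, was higher in GCN2KO unwounded cells (1.07 ± 0.075 SE, edgeR FDR = 3.81e-09). TLR3, a sensor of double-stranded RNA, fell with HDW in WT cells (-1.02 ± 0.097 SE, edgeR FDR = 4.92e-07). TNF was weak, at 15.9 to 44.6 normalized read counts in WT unwounded and 3.07 to 17.1 in GCN2KO unwounded cells, which overlapped (-1.52 ± 0.33 SE, edgeR FDR = 7.07e-04).

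**Figure D5:**
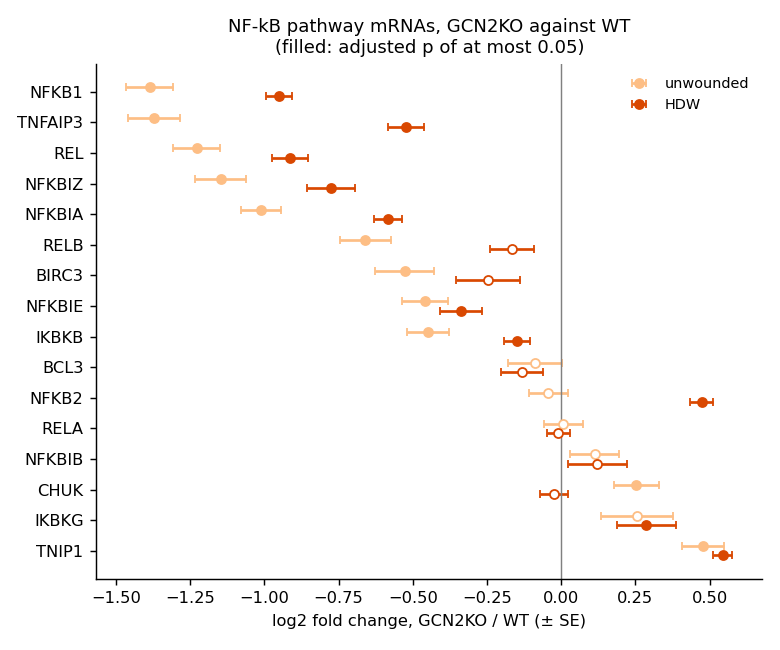
Log2 fold changes (x axis, with SE) of GCN2KO against WT for the 16 NF-kB pathway genes (y axis), in unwounded cells and after HDW, from edgeR. Filled points passed an adjusted p of 0.05. NFKB1, TNFAIP3, REL, NFKBIZ and NFKBIA lie between -1.39 and -1.01 in unwounded cells and between -0.95 and -0.52 after HDW.

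Among the NF-kB components, 9 of 16 were lower and 2 higher in GCN2KO unwounded cells, with a median log2 ratio at -0.45 against 0.00424 for all genes tested. These 11 of 16 stand beside 66.5% of all genes by adjusted p, and the 5 DE genes among them, all lower, beside 16.4%. NFKB1, the p50 subunit gene, had a log2 ratio of -1.39 (± 0.079 SE, edgeR FDR = 4.03e-10) and REL, another subunit gene, of -1.23 (± 0.079 SE, edgeR FDR = 1.45e-09). Of the inhibitors and feedback regulators in the list, some were lower and others were not. TNFAIP3 was lower by -1.37 (± 0.088 SE, edgeR FDR = 1.47e-09), NFKBIZ by -1.15 (± 0.086 SE, edgeR FDR = 8.30e-09) and NFKBIA by -1.01 (± 0.067 SE, edgeR FDR = 2.04e-09). NFKBIE, another IκB gene, was lower by -0.46 (± 0.078 SE, edgeR FDR = 7.17e-05). TNIP1, whose protein works with that of TNFAIP3, was higher by 0.48 (± 0.071 SE, edgeR FDR = 1.96e-05), and NFKBIB, an IκB gene, had a difference of 0.11 (± 0.083 SE, edgeR FDR = 0.243). RELA, the p65 subunit gene, had a difference of 0.01 (± 0.066 SE, edgeR FDR = 0.936).

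After HDW 7 of the 16 were lower and 3 higher in GCN2KO cells, none of them DE genes by edgeR, with a median of -0.16, beside 71.7% of all genes by adjusted p and 14.9% as DE genes. For the interaction 8 of 16 had a higher and 1 a lower value by adjusted p, against 23.7% of all genes in either direction. HDW raised TNFAIP3 in GCN2KO cells (0.87 ± 0.10 SE, edgeR FDR = 1.67e-04), while the WT difference was 0.00 (± 0.044 SE, edgeR FDR = 0.982).

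FOSL1, an AP-1 subunit gene, was a higher DE gene after HDW in both genotypes, by 1.58 (± 0.061 SE, edgeR FDR = 4.94e-11) in WT and 1.08 (± 0.089 SE, edgeR FDR = 2.07e-05) in GCN2KO cells, with 294 to 329 normalized read counts in WT unwounded and 837 to 1042 in WT HDW cells. FOS was lower in GCN2KO unwounded cells (-1.05 ± 0.12 SE, edgeR FDR = 1.37e-06), and so was CEBPD, a C/EBP factor gene, in both states (-1.17 ± 0.20 SE, edgeR FDR = 9.74e-05 and -1.24 ± 0.19 SE, edgeR FDR = 3.48e-05). ATF3, a stress-induced factor gene, was higher in GCN2KO unwounded cells by 3.24 (± 0.15 SE, edgeR FDR = 5.89e-11). After HDW it was higher by 2.64 (± 0.17 SE, edgeR FDR = 1.28e-08). DDIT3, the gene of CHOP, was higher by 2.85 (± 0.17 SE, edgeR FDR = 6.97e-10) and 1.04 (± 0.091 SE, edgeR FDR = 1.75e-07). ATF4 had 13156 to 15644 normalized read counts in WT unwounded and 19367 to 23703 in GCN2KO unwounded cells. After HDW its groups overlapped, at 18126.5 to 18916 in WT and 16749 to 19723 in GCN2KO cells. CEBPG was higher in GCN2KO unwounded cells by 1.14 (± 0.063 SE, edgeR FDR = 3.21e-10). HDW raised DDIT3 in WT cells by 1.53 (± 0.15 SE, edgeR FDR = 6.52e-07). Of the 14 AP-1, C/EBP and ATF genes, 5 were higher and 6 lower in GCN2KO unwounded cells by adjusted p, beside 66.5% of all genes. After HDW 6 were higher and 6 lower, beside 71.7%.

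The mRNA decay regulators held no DE gene by edgeR in any comparison, but 6 of 8 rose and 2 fell with HDW in WT cells by adjusted p alone, beside 51.3% of all genes. ZFP36, the gene of tristetraprolin, which speeds the decay of chemokine mRNAs, rose by 0.54 (± 0.040 SE, edgeR FDR = 3.36e-08) in WT and 0.38 (± 0.067 SE, edgeR FDR = 0.00253) in GCN2KO cells. ZC3H12A, the gene of a nuclease of inflammatory mRNAs, was lower in GCN2KO unwounded cells by -0.93 (± 0.09 SE, edgeR FDR = 9.01e-08). The sheddase list holds ADAM10 and ADAM17, the proteases that release CXCL16 and CX3CL1 from the membrane, RHBDF1 and RHBDF2, which bring ADAM17 to the cell surface, and the inhibitor TIMP3. In unwounded cells 4 of the 5 were lower and 1 was higher in GCN2KO cells, beside 66.5% of all genes in either direction, and after HDW 4 were lower, beside 71.7%. The lower genes thus include both a protease and an inhibitor, TIMP3 by -0.97 (± 0.10 SE, edgeR FDR = 3.49e-07) unwounded and -0.59 (± 0.11 SE, edgeR FDR = 1.57e-04) after HDW. ADAM10 was lower by -0.59 (± 0.07 SE, edgeR FDR = 1.54e-06) and -0.43 (± 0.05 SE, edgeR FDR = 1.48e-06), while ADAM17 was higher in unwounded GCN2KO cells by 0.35 (± 0.06 SE, edgeR FDR = 1.04e-04).

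Of the 10 keratinocyte markers, 3 were higher and 5 lower in GCN2KO cells by adjusted p, both unwounded and after HDW. This stands beside 66.5% and 71.7% of all genes in either direction. In both states 1 was a higher and 1 a lower DE gene, beside 16.4% and 14.9% of all genes. IVL, a marker of differentiated keratinocytes, was higher in GCN2KO cells by 1.83 (± 0.13 SE, edgeR FDR = 4.94e-09) unwounded and 1.96 (± 0.10 SE, edgeR FDR = 1.92e-09) after HDW, and COL17A1, a marker of basal keratinocytes, was lower by -1.36 (± 0.085 SE, edgeR FDR = 1.18e-09) and -1.25 (± 0.053 SE, edgeR FDR = 3.20e-10). Basal keratin genes did not share 1 direction: KRT14 was lower by -0.85 (± 0.080 SE, edgeR FDR = 1.18e-07) and -0.77 (± 0.075 SE, edgeR FDR = 4.86e-07), while KRT5 was higher by 0.50 (± 0.079 SE, edgeR FDR = 3.70e-05) and 0.52 (± 0.047 SE, edgeR FDR = 2.47e-07). The 7 leukocyte markers summed to 1659 to 1908 normalized read counts in WT unwounded, 912 to 1079 in WT HDW, 745 to 1323 in GCN2KO unwounded and 519.6 to 1099 in GCN2KO HDW cells, of which CD14, a co-receptor for lipopolysaccharide, had 368 to 1813. CD14 was a lower DE gene in GCN2KO unwounded cells (log2 ratio of -1.10 ± 0.15 SE, edgeR FDR = 6.15e-06), beside 16.4% of all genes in either direction. Other leukocyte markers did not share its direction. By adjusted p alone 1 of the 4 tested was higher and 2 were lower in GCN2KO unwounded cells, beside 66.5% of all genes. After HDW 2 were higher and 1 was lower, beside 71.7%. The 6 fibroblast markers summed to 664 to 1039 in all libraries, of which COL1A1 alone had 600 to 968, and 2 of the 6 passed the filter. The 4 endothelial markers summed to 10.9 to 37.5 and the 4 melanocyte ones to 56.5 to 100.3. Their part in the chemokine differences was not tested.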

How the data were processed

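RNA was sequenced from 20 NTERT cultures as 150 bp read pairs. The authors used Trimmomatic for trimming, STAR for alignment to GRCh38 and featureCounts for counting, keeping read pairs with a unique position on exons. Raw counts per Ensembl gene were deposited, without normalization or filter. The annotation release and strand setting are not given in the sources used here. Of 57500 genes, 56410 had an entry in GENCODE release 44, the source of symbols, positions and exon lengths.

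Groups were taken from the sample labels. Quasi-likelihood tests (glmQLFit, glmQLFTest) of edgeR 4.0.16, run under R 4.3.3, compared each pair of groups on its 10 libraries, with TMM scaling and filterByExpr (minimum count 10, minimum total 15). The interaction used all 20. P-values were Benjamini-Hochberg adjusted over all genes tested. DE genes passed both of the study's thresholds, an adjusted p of 0.05 and a log2 fold change of 1 in either direction. SE was obtained as the log2 value over the root of F. P-values measure the spread between these cultures. Library totals of 14083504 to 34611570 set the precision, and intervals and floors cover counting error only.

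The members and lists were chosen with earlier results of these data known. Named genes are the 9 members, EIF2AK4, up to 4 DE genes with the smallest adjusted p per list and direction outside the marker lists, other chemokine and receptor genes above the filter, and the 3 genes most like each member. From the marker lists IVL, COL17A1, CD14, CD207 and CD1A are named, and other DE genes of these lists are not. ZFP36, ZC3H12A, ADAM10, ADAM17, TIMP3, RHBDF1, RHBDF2, RELA, NFKBIZ, NFKBIE, NFKBIB and TNIP1 are named in addition, chosen after their values were seen. So are ATF4, KRT5, KRT14, COL1A1, PTPRC, PPBP, CCRL2, CCR2, CCR6 and CXCR6. The code was tested on simulated counts with known changes. No replicates were duplicates, the closest pair of a group differing by a chi-square of 2.68 per gene. The farthest pair, GCN2KO unwounded replicates 3 and 4, differed by 62.1. In that group replicates 2 and 4 differed by 8.17 and replicates 3 and 5 by 10.3. Alternatives were DESeq2 1.42.0, its size factors, library size alone, other filters, all 20 samples in one fit, a replicate block, thinned counts, adjusted p alone and each library left out.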

Additional observations from a re-analysis of the deposited data

Results flagged for a closer look

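The HDW response differed between WT and GCN2KO cells, by the interaction test of edgeR over all 20 libraries, in 3 of the 15 chemokine and receptor genes tested, beside 23.7% of all genes. CXCL1 had an interaction of 1.40 (SE 0.16, edgeR adjusted p = 6.81e-07), CXCL6 of 1.38 (SE 0.22, edgeR adjusted p = 7.65e-05) and CCL28 of 0.43 (SE 0.14, edgeR adjusted p = 0.0279). In the upstream lists the DE genes of the interaction were TNF at 1.11 (SE 0.40, edgeR adjusted p = 0.0468) and DDIT3 at -1.80 (SE 0.20, edgeR adjusted p = 8.73e-07). By adjusted p alone more passed, beside the same 23.7% of all genes. They were 5 higher and 4 lower of 24 inducing cytokine genes and 8 and 1 of 16 NF-kB genes. Of 14 AP-1, C/EBP and ATF genes 1 was higher and 6 were lower. Of 8 decay regulators 3 were higher, and of 5 sheddase genes 1 was lower. TNF passed in 7 of the 20 fits with 1 library left out, with adjusted p from 0.0225 to 0.103, and DDIT3 in all 20.

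In 4 of 64 sets of 5 libraries, 1 library lay far from the other 4, where chance gives about 1 in 20 (3.2 of 64). CXCL16 was highest in GCN2KO unwounded replicate 4 at 1725 normalized read counts, against 1439.5 to 1489 in the other 4. Without that library the CXCL16 difference from WT unwounded cells was -0.30 in place of -0.25. CCL5 was lowest in GCN2KO HDW replicate 5 at 57.5, against 86.9 to 96.5. CXCR2 was highest in WT HDW replicate 3 at 27.8, against 13.5 to 16.9. ACKR3 was highest in GCN2KO unwounded replicate 1 at 1195, against 735 to 837.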

How the results depend on the processing

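The counts of DE genes among the 9 chemokines (2 and 1 for GCN2KO against WT unwounded and after HDW, 1 and 0 for HDW in WT and GCN2KO cells, 1 for the interaction) stayed within 1.5 times under every alternative that keeps the fold change threshold, and each kept its value with every library left out in turn (2 to 2, 1 to 1, 1 to 1, 0 to 0 and 1 to 1). Without the threshold they were 4, 4, 3, 3 and 1. DESeq2 and the fit without a filter called 3 in the unwounded comparison, the additional one being CXCL14 (log2 fold change of -2.88, adjusted p = 0.0124 by DESeq2 and -2.65, adjusted p = 0.00295 by edgeR), on 18 against 3 counts. With the replicate number as a block the counts were 2, 1, 1, 0 and 1. Samples of the same number shared only a number: their deviations from the group means correlated by -0.325 to 0.133. The block gave 2546, 2373, 641, 102 and 528 DE genes over all genes, and took TNF's interaction to 1.11 (edgeR adjusted p = 0.0729).

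Over all genes, the DE genes numbered 2521 and 2368 for the genotype unwounded and after HDW, 640 and 106 for HDW in WT and GCN2KO cells and 547 for the interaction. They were 3920, 3681, 998 and 199 without a filter, 1630, 1328, 371, 40 and 280 with a mean of at least 50 counts, and 10213, 11367, 7878, 3586 and 3926 by adjusted p alone.

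Signs turned only in differences close to 0. CXCL1 for GCN2KO against WT after HDW was 0.012 with library size alone and 0.027 without the 2 libraries that lay apart, an alternative added after seeing the data, and ranged from -0.056 to 0.027 with 1 library left out. CXCL2's interaction was 0.013 with library size alone and -0.21 to 0.15 with 1 library left out, and CXCL3's was -0.17 with counts thinned to the smallest library. With 1 library left out, HDW in WT cells ranged from -0.081 to 0.24 for CXCL3 and from -0.085 to 0.28 for CXCL2, both below 0 without WT HDW replicate 2. CXCL2's HDW value in GCN2KO cells ranged from -0.038 to 0.18, and EIF2AK4 ranged from -0.061 to 0.0020 for HDW in GCN2KO cells and from -0.019 to 0.051 for the interaction. CXCL3 after HDW also passed with library size alone, no filter and all 20 samples in one fit (edgeR adjusted p of 0.0440, 0.0443 and 0.0432). TNF's interaction failed with thinned counts (edgeR adjusted p = 0.144). The causes were not tested.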
